A study of Mus musculus with 4 samples.

Results

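The genes described here are 10 cell surface genes by which blood stem cells are recognised and sorted, several of which are shared with the endothelium that lines blood vessels: Procr, Robo4, Esam, Tie1, Tek, Emcn, Cd34, Ly6a, Cd48 and Slamf1. They were found as the probes whose gene symbol is one of these names, which gave 12 of 55681 probes and 10 of 24278 genes. Cd34 and Cd48 had 2 probes each and the other genes 1 probe each, with 1 spot a probe. The series has 4 single-colour Agilent arrays, 1 for each of 4 groups of cells sorted from adult mouse bone marrow. The CLP sort (lineage-negative, low in c-kit and Sca-1, positive for IL7Rα, enriched for common lymphoid progenitors) came from mice with an SFRP5 transgene (SFRP5 CLP) and from WT littermates (WT CLP). The LSK sort (lineage-negative, high in c-kit, positive for Sca-1), which holds stem cells and multipotent progenitors, came from the same 2 kinds of mice (SFRP5 LSK and WT LSK). The stated aim was to find genes regulated by SFRP5, a secreted protein that binds Wnt ligands. The labels do not say how many mice were pooled, of which sex, or which promoter drives the transgene.

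In adult mouse marrow, stem cells share surface proteins with the endothelium, the cell type that arises beside them in the embryo. PROCR (EPCR), SLAMF1 (CD150), ESAM and Sca-1, the product of Ly6a, mark the stem cell fraction, CD48 is carried by most other progenitors and blood cells and is low or absent on stem cells, and CD34 is carried by early progenitors. TEK (Tie2) is the receptor of angiopoietins and TIE1 its co-receptor, ROBO4 is the roundabout receptor of the endothelium, and EMCN is an endothelial sialomucin.

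Each signal is on a log2 scale on which 0 is the 75th percentile of that array, and "above background" stands for the scanner software's own flag for a spot well above background. A gene above background on both arrays of a comparison is called measured. When it was above background on 1 of the 2 arrays, the fold is a lower bound ("at least"), taken on the other array against the dimmest signal that passes the flag or against the gene's own signal where that is higher. Such bounds hold for the scanner's own background subtraction only. Normexp background correction with an offset of 50 was an alternative that compresses differences of dim signals. It gave smaller values, which are printed beside the results they touch or in the last section. With 1 array a group there is no replicate check and no test between groups, and precision is limited by the number of arrays. The only spread at hand comes from 432 probes spotted repeatedly, whose median SD on 1 array was 0.059 to 0.071 above the 75th percentile and 0.367 to 0.486 below -4. Between 65.3% and 70.1% of all probes were above background on each array. The gate genes Kit and Ly6a were lower and Il7r was higher in the CLP sort than in the LSK sort in both genotypes. Flt3, listed with these genes as a gene of early and lymphoid progenitors, was lower in CLP. Its log2 difference was -2.78 in the SFRP5 pair and -2.71 in the WT pair. Of 15 erythroid marker genes, 12 in the SFRP5 pair and 13 in the WT pair were at least 2-fold higher in CLP than in LSK, and of 12 B lineage markers 10 were in each pair. Of 10 granulocyte and monocyte markers measured 7 were higher and 2 lower in the SFRP5 pair, and 8 higher and 0 lower in the WT pair. Of the mast cell and basophil markers 4 of 6 were higher and 0 lower in the SFRP5 pair. In the WT pair 5 of 7 were higher and 1 lower. By bounds, 1 more of the granulocyte and monocyte list and 1 more of the mast cell and basophil list were lower in the SFRP5 pair. Of the erythroid list 2 more in the SFRP5 pair and 1 more in the WT pair were higher by bounds. Of the B lineage list it was 1 more in each pair. Of the mast cell and basophil list, 3 more in the SFRP5 pair and 2 more in the WT pair were higher by bounds. The part of such cells in the values of the CLP sort was not tested. Xist, the RNA of the inactive X chromosome, stood at 4.50 in SFRP5 CLP and 4.99 in SFRP5 LSK and was not above background in either WT group, so genotype and sex-linked expression cannot be told apart in any comparison of SFRP5 with WT.

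More of the 10 genes were above background on the LSK arrays than on the CLP arrays. On the LSK arrays 9 of them were above background in each genotype, against 7 on the SFRP5 CLP array and 5 on the WT CLP array, Ly6a included. Of all probes, 65.3% were above background in SFRP5 LSK and 70.1% in WT LSK, against 66.1% in SFRP5 CLP and 65.7% in WT CLP. By the scanner's weaker flag, for a signal that is positive and significant, the order of the CLP arrays turned and the contrast with LSK was lost, since 11 of the 12 probes passed in SFRP5 CLP and 12 in WT CLP, against 12 in SFRP5 LSK and 12 in WT LSK. Slamf1 was above background on none of the 4 arrays. Procr, Robo4 and Esam were above background on all arrays except WT CLP, a pattern of 312 genes, which is 1.29% of all genes. Emcn was above background on all arrays except SFRP5 CLP, a pattern of 268 genes (1.1%), and Tek on the LSK arrays alone, a pattern of 366 genes (1.51%). Cd34, Cd48, Tie1 and Ly6a were above background on all 4 arrays, as were 62.5% of all genes.

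**Figure D1:**
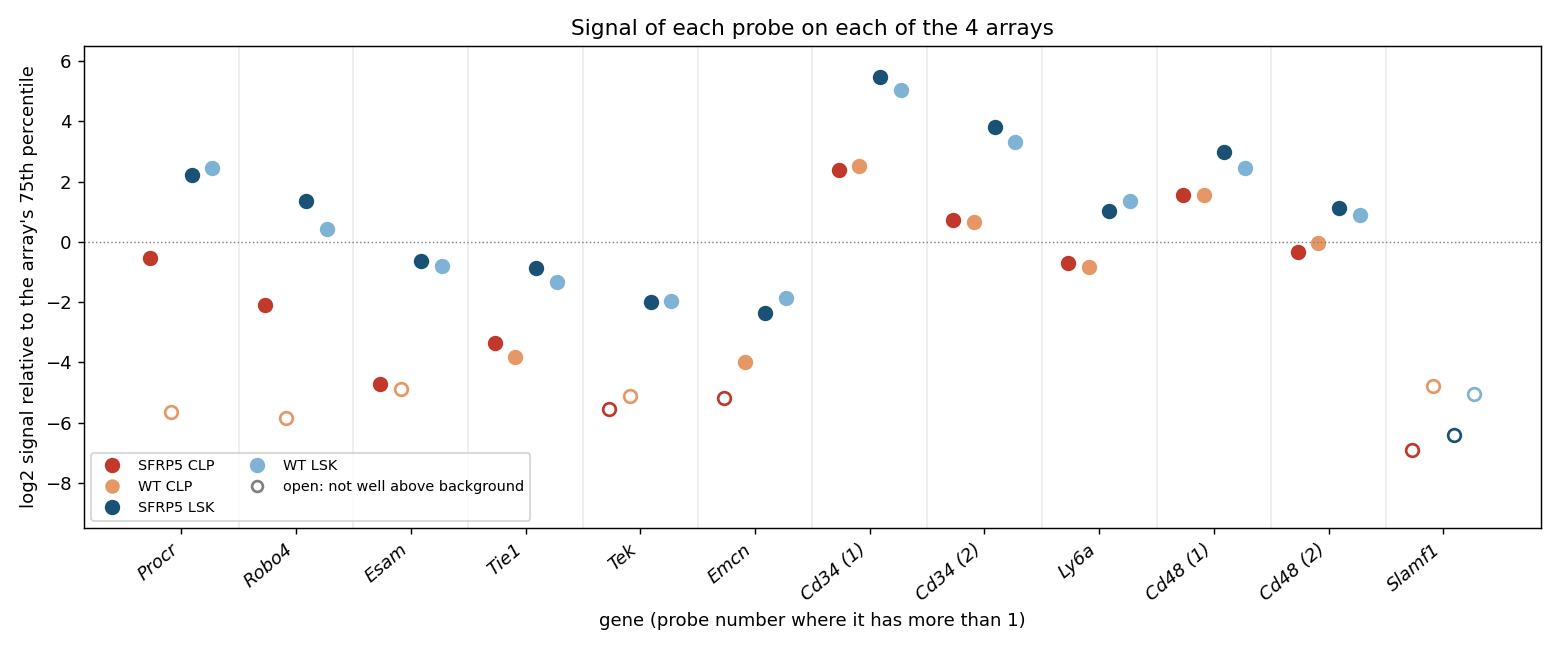
Signal of each of the 12 probes on the 4 arrays, on a log2 scale with the 75th percentile of each array at 0. Each point is 1 array and open points are not well above background. Within each gene the CLP points lie below the LSK points except for Slamf1, which is open on all 4 arrays, and Procr and Robo4 show filled points in SFRP5 CLP beside open points in WT CLP.

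Procr encodes the endothelial protein C receptor, which presents protein C to its activating complex. Its probe stood at -0.55 in SFRP5 CLP and at -5.64, not above background, in WT CLP, against 2.22 in SFRP5 LSK and 2.46 in WT LSK. The SFRP5 CLP array thus lay between the WT CLP array, which was at the level of background, and the LSK arrays, which were close to each other. Before scaling, the brightness of the spot was 225 in SFRP5 CLP and 34 in WT CLP, against 1325 in SFRP5 LSK and 1527 in WT LSK, over local backgrounds of 22 to 25, and the spot carried no outlier flag on any array. Procr was 6.82-fold lower in SFRP5 CLP than in SFRP5 LSK and at least 147-fold lower in WT CLP than in WT LSK. With normexp its log2 differences were -2.49 in the SFRP5 pair and -4.42 in the WT pair, the second well short of that bound. Of 18118 genes, 2 were as low as Procr in the WT pair, Procr included, and 327 of 17710 were as low in the SFRP5 pair.

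Robo4 encodes a single-pass receptor that stabilises vessels and takes part in the homing of stem cells to the marrow. It stood at -2.10 in SFRP5 CLP and at -5.86, not above background, in WT CLP, against 1.37 in SFRP5 LSK and 0.43 in WT LSK. The order of the CLP arrays was that of Procr, while the SFRP5 LSK array was the higher of the LSK arrays. The brightness of the spot before scaling was 95 in SFRP5 CLP and 33 in WT CLP, over local backgrounds of 22 and 21. Robo4 was 11.1-fold lower in SFRP5 CLP than in SFRP5 LSK and at least 36.1-fold lower in WT CLP than in WT LSK, where 12 of 18118 genes were as low. With normexp its log2 difference was -2.49 in the SFRP5 pair and -2.41 in the WT pair, so that the bound was not met and the pairs were nearly equal.

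Esam encodes an adhesion molecule of endothelial tight junctions. It stood at -4.72 in SFRP5 CLP and at -4.87 in WT CLP, where the flag was passed in SFRP5 CLP only, against -0.64 in SFRP5 LSK and -0.82 in WT LSK. The CLP arrays lay together at the level of background and the LSK arrays lay together above it. Esam was 17.0-fold lower in SFRP5 CLP than in SFRP5 LSK, the furthest of the measured genes described here in that pair, and at least 15.2-fold lower in WT CLP than in WT LSK. With normexp its log2 difference was -1.99 in the SFRP5 pair and -1.63 in the WT pair. It was then no longer the furthest in the SFRP5 pair, where Cd34 was at -3.02.

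Both angiopoietin receptors were lower in CLP as well. Tie1 stood at -3.36 in SFRP5 CLP and -3.84 in WT CLP, against -0.87 in SFRP5 LSK and -1.35 in WT LSK. It was 5.59-fold lower in CLP in the SFRP5 pair and 5.62-fold lower in the WT pair, so that its level in CLP was 17.9% of that in LSK in the SFRP5 pair and 17.8% in the WT pair. Tek stood at -5.54 in SFRP5 CLP and -5.12 in WT CLP, neither above background, against -2.0 in SFRP5 LSK and -1.97 in WT LSK. Its LSK values were nearly equal, and it was at least 7.47-fold lower in CLP in the SFRP5 pair and at least 6.83-fold lower in the WT pair. With normexp the log2 difference of Tek was -1.25 in the SFRP5 pair and -0.85, short of 2-fold, in the WT pair. Emcn stood at -5.17, not above background, in SFRP5 CLP and at -3.98 in WT CLP, against -2.37 in SFRP5 LSK and -1.85 in WT LSK. It was at least 5.79-fold lower in CLP in the SFRP5 pair and 4.37-fold lower in the WT pair. With normexp the log2 difference of Emcn was -0.91 in the SFRP5 pair and -0.63 in the WT pair, short of 2-fold in both. For Tie1 it was -1.36 in the SFRP5 pair and -1.04 in the WT pair.

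Cd34, a sialomucin of progenitors and endothelium, was measured by 2 probes. Its brighter probe stood at 2.37 in SFRP5 CLP and 2.52 in WT CLP, against 5.47 in SFRP5 LSK and 5.04 in WT LSK. Its other probe stood at 0.72 in SFRP5 CLP and 0.67 in WT CLP, against 3.82 in SFRP5 LSK and 3.32 in WT LSK. Both probes placed the CLP arrays together and the SFRP5 LSK array highest. Cd34 was 8.54-fold lower in CLP in the SFRP5 pair and 5.74-fold lower in the WT pair by the brighter probe, and 8.60-fold and 6.27-fold lower by the other.

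Ly6a stood at -0.70 in SFRP5 CLP and -0.84 in WT CLP, against 1.02 in SFRP5 LSK and 1.35 in WT LSK. It was 3.30-fold lower in CLP in the SFRP5 pair and 4.59-fold lower in the WT pair. Sca-1, its product, was used to gate both sorts (positive for LSK, low for CLP), so this difference between sorts is a check of the gate and is no finding.

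Cd48 and Slamf1 belong to the SLAM family of lymphocyte receptors. Cd48, which binds the receptors CD244 and CD2, was measured by 2 probes on all 4 arrays. Its brighter probe stood at 1.54 in SFRP5 CLP and 1.54 in WT CLP, against 2.97 in SFRP5 LSK and 2.44 in WT LSK. Its other probe stood at -0.33 in SFRP5 CLP and -0.04 in WT CLP, against 1.12 in SFRP5 LSK and 0.89 in WT LSK. Cd48 was 2.70-fold lower in CLP in the SFRP5 pair and, at 1.87-fold, short of 2-fold in the WT pair, where 18.8% of genes were as low. Slamf1, the SLAM receptor that marks stem cells, was not above background on any array, at -6.92 in SFRP5 CLP, -4.80 in WT CLP, -6.41 in SFRP5 LSK and -5.04 in WT LSK. It passed the weaker flag in WT CLP, SFRP5 LSK and WT LSK. No difference in Slamf1 was detectable at these signals.

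The comparison of CLP with LSK asks how these genes differ between the lymphoid sort and the stem and progenitor sort, in 2 pairs of arrays that share no array. Ly6a, which the gate fixed, is left out of the counts that follow, which are over the other 9 genes. In the SFRP5 pair 6 of 6 measured genes were at least 2-fold lower in CLP, against 11% of all 15710 genes measured. Counting bounds, 8 of the 9 genes were lower in that pair, against 12.6% of 17710 genes. In the WT pair 3 of 4 measured genes were at least 2-fold lower in CLP, against 14.3% of all 16014 genes measured, and 7 of the 9 with bounds, against 16.2% of 18118. None was at least 2-fold higher in CLP, where 11.5% of all measured genes were in the SFRP5 pair and 17.8% in the WT pair (13.0% and 17.5% with bounds). The 7 genes lower in both pairs were Procr, Robo4, Esam, Tie1, Tek, Emcn and Cd34, against 6.38% of 17064 genes with a value or a bound in both pairs. Tek and Emcn were lost from these with normexp. Ly6a included, normexp lowered the counts with bounds from 9 to 8 in the SFRP5 pair and from 8 to 6 in the WT pair. Of the 3 genes measured on all arrays, Cd34 and Tie1 were lower in both pairs, against 5.3% of 15178 genes. Over the 8 genes above background on at least 1 array of a pair, the median difference was -2.95 in the SFRP5 pair and -2.83 in the WT pair, while that of all genes was 0.03 and -0.05. All these medians take differences as measured, not bounds. Tek and Emcn in the SFRP5 pair, and Procr, Robo4, Esam and Tek in the WT pair, enter by their LSK signal only. With Ly6a included the medians were -2.80 in the SFRP5 pair and -2.52 in the WT pair, and with normexp -1.47 and -1.63. In sorted bulk RNA, fewer cells that carry a transcript and less transcript per cell cannot be told apart.

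**Figure D2:**
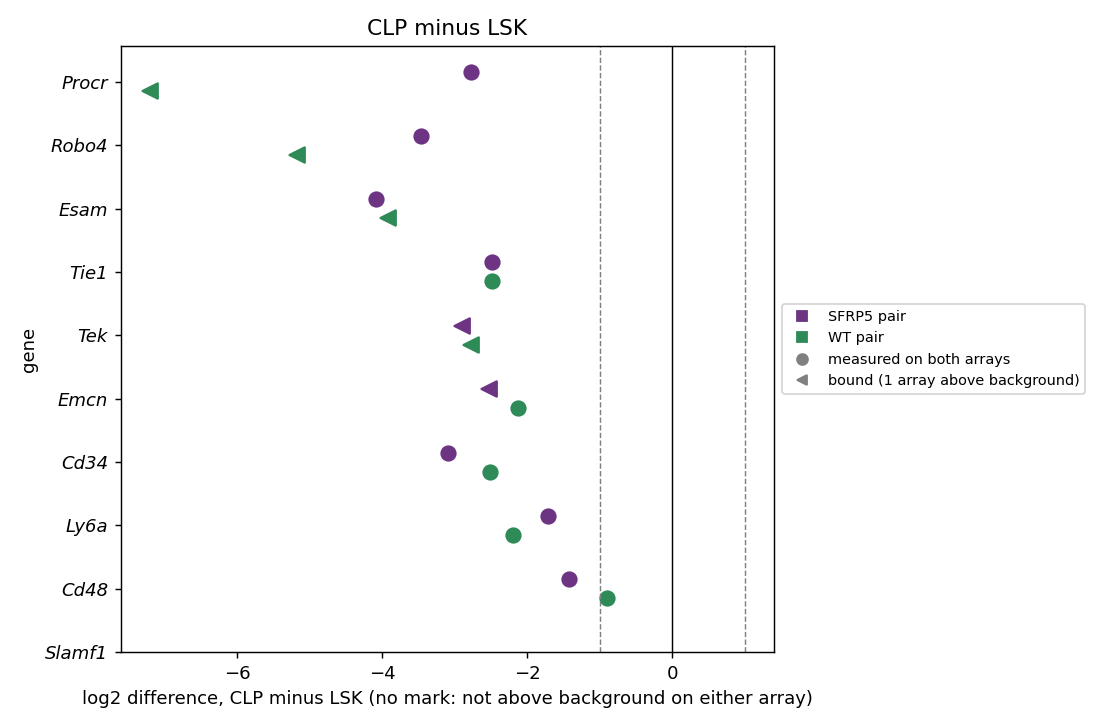
Log2 difference between CLP and LSK for each gene in the SFRP5 pair (upper mark of each gene) and in the WT pair (lower mark). Circles are measured on both arrays, triangles are bounds that point the way the true difference may go, and dashed lines mark 2-fold. Marks of 8 genes, Ly6a among them, lie left of the 2-fold line in both pairs, and Procr and Robo4 lie furthest left in the WT pair.

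The 2 pairs gave nearly the same sort difference for Tie1 (-2.48 in the SFRP5 pair and -2.49 in the WT pair) and, as measured, for Esam (-4.09 and, with WT CLP at background, -4.05). The sort difference of the SFRP5 pair minus that of the WT pair was -0.57 for Cd34, -0.53 for Cd48 and 0.47 for Ly6a, so the drop was larger in the SFRP5 pair for Cd34 and Cd48 and larger in the WT pair for Ly6a. The wide gaps were those of Procr and Robo4, whose sort difference was smaller in the SFRP5 pair. Both rest on WT CLP signals that were not above background, and with normexp the gap of Robo4 vanished while that of Procr kept its direction (values above). Over the 190 genes at least 8-fold lower in CLP in the WT pair, chosen by that value, the median difference as measured was -3.83 in the WT pair and -2.65 in the SFRP5 pair, and 100 of the 190 were less lowered than Procr in the SFRP5 pair. Of the 46 genes at least 16-fold lower in the WT pair, whose median in the SFRP5 pair was -4.01, 13 were less lowered there than Procr. Since these genes were chosen by their value in the WT pair, their medians are a description of the 2 pairs and no test was made.

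**Figure D3:**
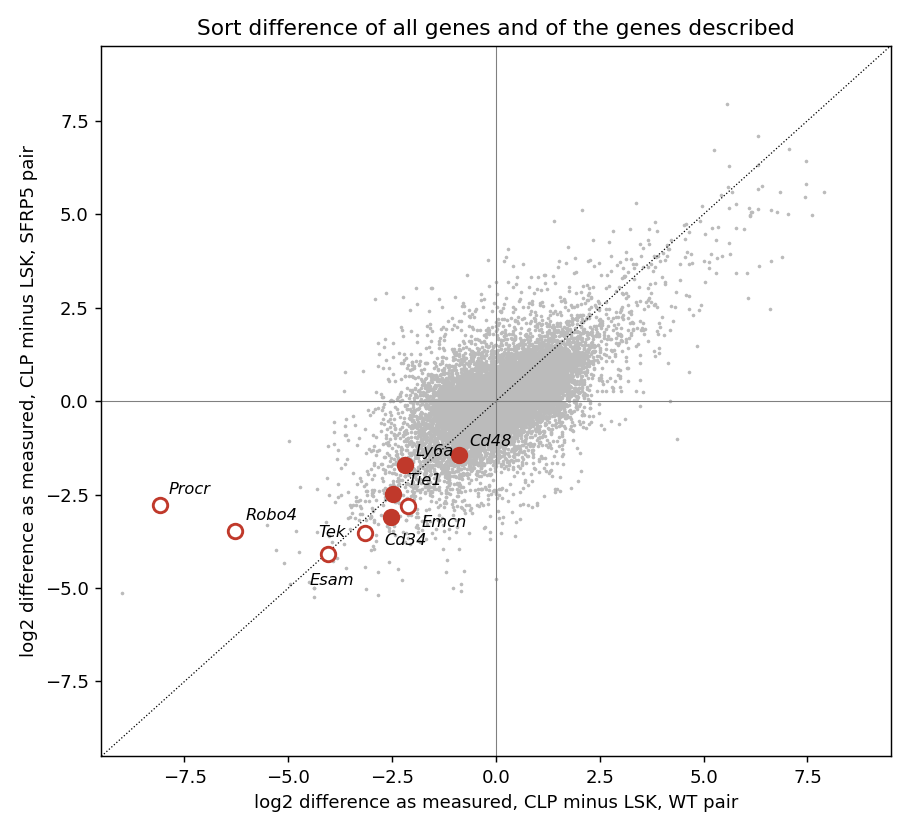
Log2 difference between CLP and LSK in the SFRP5 pair (vertical axis) and in the WT pair (horizontal axis). Grey points are the 15178 genes above background on all 4 arrays, red filled points are genes described here that are above background on all 4, and red open points those below background on 1 or 2 arrays, shown as measured. The dotted line marks equal differences. Procr and Robo4 lie above the line by WT CLP signals that are not above background, and with normexp (not plotted) Robo4 was at -2.49 in the SFRP5 pair and -2.41 in the WT pair. Esam and Tie1 lie on the line.

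The comparison of SFRP5 with WT asks what goes with the transgene within a sort. In CLP none of the 4 measured genes differed by 2-fold (of all 15941 measured genes, 4.25% were higher at this threshold and 4.3% lower). By bounds, Procr was at least 18.3-fold higher and Robo4 at least 6.23-fold higher in SFRP5 CLP than in WT CLP, where with bounds 5.43% of 17519 genes were higher at 2-fold and 5.53% lower. With normexp the log2 difference was 1.75 for Procr and 0.70 for Robo4, so that neither bound was met and Robo4 was short of 2-fold. As high a value or bound was reached by 6 genes for Procr (0.0342%) and by 71 genes for Robo4 (0.405%), each counted with the gene itself. Among the 289 genes with a bound that were above background on every array but WT CLP, 3 were as high as Procr and 17 as high as Robo4. Esam, which has the same pattern of detection, had a bound of 1.01-fold. Emcn was lower in SFRP5 CLP by a bound of 1.90-fold, short of 2-fold. The measured genes differed by 0.49 for Tie1, 0.14 for Ly6a, -0.14 for Cd34 and -0.00 for Cd48.

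Within LSK none of the 9 measured genes differed by 2-fold between SFRP5 and WT, where of all 16124 measured genes 6.57% were higher and 7.17% lower (7.17% and 9.52% of 17962 with bounds). The log2 differences ran from -0.52 for Emcn to 0.94 for Robo4, which was 1.92-fold higher in SFRP5 LSK. Procr differed by -0.24 within LSK. Cd48 differed by 0.53, Tie1 by 0.48, Cd34 by 0.43, Esam by 0.18, Tek by -0.03 and Ly6a by -0.33. Tie1 had nearly the same small difference in both sorts (0.49 in CLP and 0.48 in LSK). The median over the genes above background was 0.15 in CLP and 0.18 in LSK, against -0.03 and -0.02 over all genes. The comparisons of genotypes share their arrays with the comparisons of sorts, so the values of Procr and Robo4 in WT CLP enter both.

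**Figure D4:**
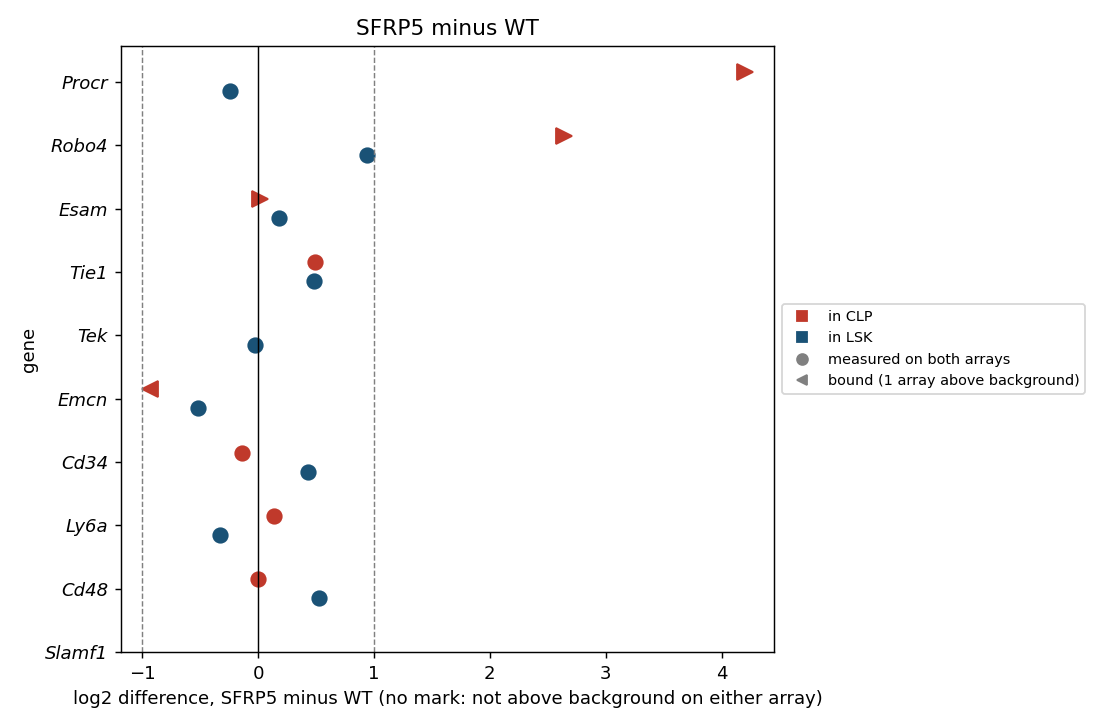
Log2 difference between SFRP5 and WT for each gene within CLP (upper mark of each gene) and within LSK (lower mark). Circles are measured on both arrays, triangles are bounds, and dashed lines mark 2-fold. The bounds of Procr (4.20) and Robo4 (2.64) in CLP are the only marks outside the 2-fold lines.

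The sequences just before the start of Procr, Robo4, Tie1 and Tek are shown because these are the receptors of vascular type with the widest gap between the CLP arrays (Procr and Robo4) and with nearly equal sort differences in both pairs (Tie1) or none of their signal above background in CLP (Tek). Promoters were found for 8 of the 10 genes. Esam and Ly6a had no entry. Each is the 250 bases upstream of the start in RefSeq on GRCm38.p6, written 5′ to 3′ on the strand of the gene, and capitals mark every match to the short motifs named below. Procr lies at chr2:155750967-155751216 on the plus strand, Robo4 at chr9:37401722-37401971 on the plus strand, Tie1 at chr4:118489850-118490099 on the minus strand and Tek at chr4:94739039-94739288 on the plus strand.
Procr: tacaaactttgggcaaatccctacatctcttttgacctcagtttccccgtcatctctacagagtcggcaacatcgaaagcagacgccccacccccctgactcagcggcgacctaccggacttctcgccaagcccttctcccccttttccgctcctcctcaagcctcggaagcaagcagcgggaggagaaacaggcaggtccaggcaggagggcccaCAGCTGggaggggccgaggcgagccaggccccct
Robo4: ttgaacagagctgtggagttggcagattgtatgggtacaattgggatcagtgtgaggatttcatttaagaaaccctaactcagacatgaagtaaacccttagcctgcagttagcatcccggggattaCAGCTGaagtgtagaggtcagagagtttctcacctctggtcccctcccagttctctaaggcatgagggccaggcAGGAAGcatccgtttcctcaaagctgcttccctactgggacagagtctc
Tie1: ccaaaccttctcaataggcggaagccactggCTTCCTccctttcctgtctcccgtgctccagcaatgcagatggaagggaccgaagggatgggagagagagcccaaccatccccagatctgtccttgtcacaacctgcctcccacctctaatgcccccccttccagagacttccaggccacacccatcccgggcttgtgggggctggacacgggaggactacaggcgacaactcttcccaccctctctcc
Tek: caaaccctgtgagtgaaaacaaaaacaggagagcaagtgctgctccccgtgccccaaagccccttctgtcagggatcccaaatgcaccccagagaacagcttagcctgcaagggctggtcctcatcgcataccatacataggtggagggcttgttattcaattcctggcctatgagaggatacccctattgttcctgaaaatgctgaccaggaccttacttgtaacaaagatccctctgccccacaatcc

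The motifs searched on both strands were AGGAAG for ETS factors, AGATAA and TGATAA for GATA factors, TGTGGT for RUNX factors, CAGCTG (its own reverse complement) for E-box factors, and CTTTGAA and CTTTGAT for TCF/LEF, the factors of Wnt signalling. They were chosen with the values of the genes known. AGATAA and TGATAA share their last 5 letters and TGATAA can overlap CTTTGAT, and no matches overlapped in these promoters. The ETS letters were present in 5 of 8 promoters (Robo4, Tie1, Emcn, Cd34 and Slamf1), against 29.5% of all 32851 promoters of the same length. The E-box letters were present in Procr, 34 bases before the start, and in Robo4, 123 bases before it, against 13.0% of all promoters. The GATA letters were present in Slamf1 alone (16.6% of all promoters), and the RUNX letters in Cd48 alone (14.0%). The letters searched for TCF/LEF were in 0 of the 8 (7.48% of all promoters), and Tek had no match to any motif searched. Other spellings of these sites, such as CTTTGTT, were not searched, and the Tek window holds aacaaag, the reverse complement of CTTTGTT. A match is a run of letters and no more than that, and its absence says only that the letters are not in this window.

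Some of these genes are neighbours. In the RefSeq order of protein-coding genes on chromosome 9, Robo4 and Esam are parted by Robo3 and Msantd2, which were measured on all 4 arrays and stayed within 2-fold between the sorts in both pairs. Robo3, a roundabout receptor of axon guidance, stood at -2.90 in SFRP5 CLP and -2.32 in WT CLP, against -2.17 in SFRP5 LSK and -1.88 in WT LSK. Msantd2 stood at -1.98 in SFRP5 CLP and -1.47 in WT CLP, against -2.11 in SFRP5 LSK and -1.63 in WT LSK. On the far side of Esam lie Vsig2, Nrgn and Spa17, in that order. Vsig2 was lower in CLP, by a log2 difference of -1.39 in the SFRP5 pair and -1.46 in the WT pair. Nrgn stood at 0.84 in SFRP5 CLP and 0.22 in WT CLP, against 2.81 in SFRP5 LSK and 1.59 in WT LSK. Spa17 was within 2-fold, at 0.46 in the SFRP5 pair and 0.87 in the WT pair. On chromosome 1 Cd48 and Slamf1 lie in the SLAM cluster, with Slamf7 next to Cd48. Slamf7 stood at -3.09 in SFRP5 CLP and -3.16 in WT CLP, against -4.45 in SFRP5 LSK and -4.0 in WT LSK.

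The ligands and partners of these receptors were described from lists of their pathways. Their counts at 2-fold stand beside the shares of all measured genes, which were 11% lower and 11.5% higher in CLP in the SFRP5 pair and 14.3% lower and 17.8% higher in the WT pair. Angpt1, the activating ligand of TEK, which stem and progenitor cells make themselves, stood at 1.36 in SFRP5 CLP and 1.07 in WT CLP, against 5.14 in SFRP5 LSK and 5.0 in WT LSK. Its log2 difference between sorts was -3.78 in the SFRP5 pair and -3.94 in the WT pair. Angpt2, the context-dependent antagonist, stood at -1.18 in SFRP5 CLP and -0.67 in WT CLP, against -3.22 in SFRP5 LSK and -0.99 in WT LSK, so that the SFRP5 LSK array alone was low. Ptprb, the endothelial phosphatase that restrains TEK, was not above background on any array. Over the angiopoietin-TIE list 2 of 11 measured genes were at least 2-fold lower and 2 higher in CLP in each pair, with medians of 0.19 and 0.05 in the SFRP5 and the WT pair. Grb14 was also higher in the SFRP5 pair by a bound (3.12). Dok2, an adaptor that TEK recruits, was the other low gene, at -1.09 in the SFRP5 pair and -1.60 in the WT pair. Foxo1, which acts downstream and is also a lymphoid transcription factor, was higher in CLP, at 1.5 and 1.79.

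In the protein C and thrombin receptor list, F2r (PAR1), through which PROCR-bound activated protein C signals, stood at -0.68 in SFRP5 CLP and -1.89 in WT CLP, against 1.47 in SFRP5 LSK and 0.49 in WT LSK. Its log2 difference between sorts was -2.15 in the SFRP5 pair and -2.38 in the WT pair, and between genotypes it was 1.22 in CLP and 0.98, short of 2-fold, in LSK. F2rl3 (PAR4) was lower in CLP, at -1.96 in the SFRP5 pair and -2.41 in the WT pair. Thbd, the thrombomodulin of the same complex, was higher in CLP in the WT pair (1.59) and within 2-fold in the SFRP5 pair (0.28), and Tfpi was within 2-fold in both (0.31 and 0.70). F2rl1 (PAR2) was not above background on any array. Over this list 3 of 10 measured genes were at least 2-fold lower in CLP in the SFRP5 pair and 4 of 9 in the WT pair, with 1 higher in each, and medians of -0.06 and -0.46. F2 was also higher in the SFRP5 pair by a bound (1.71). Between genotypes in CLP, 3 of 9 measured genes of this list were higher in SFRP5 at 2-fold, beside 4.25% of all genes, and 0 lower, with a median of 0.32. There F2 was higher in SFRP5 by a bound (1.65).

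In the Slit-Robo list Srgap3, a GTPase-activating protein that binds roundabout receptors, stood at -0.95 in SFRP5 CLP and -3.84 in WT CLP, against 0.36 in SFRP5 LSK and -0.03 in WT LSK. It shared with Robo4 the low WT CLP array, being 2.89 higher on the log2 scale in SFRP5 CLP than in WT CLP, and above background on both. Slit2, a secreted ligand, was low and close on all 4 arrays, at -4.20 in SFRP5 CLP, -3.82 in WT CLP, -4.33 in SFRP5 LSK and -4.34 in WT LSK. Robo1 was not above background on any array. Vcam1, a vascular adhesion molecule, was higher in CLP by 2.95 in the SFRP5 pair and 2.88 in the WT pair, and Cxcr4, the homing receptor, was at 0.35 and 1.17. Over the list 1 of 9 measured genes was at least 2-fold lower in each pair, with medians of -0.20 and -0.12. At least 2-fold higher were 1 in the SFRP5 pair and 2 in the WT pair.

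The relatives of CD34, EMCN and ESAM mostly stayed within 2-fold. Of the sialomucins and selectins, 1 of 8 measured genes in the SFRP5 pair (Crkl, -1.04) and 0 of 7 in the WT pair were at least 2-fold lower in CLP, 2 more in the WT pair were lower by a bound, and the medians were -0.01 and 0.23. Podxl, the sialomucin closest to CD34, was above background in WT LSK alone (-3.53). Madcam1, a ligand of selectins and integrins, differed by 0.17 in the SFRP5 pair and 0.42 in the WT pair, and Spn (CD43) by -0.01 and -0.22. Of the junctional molecules related to ESAM, 2 of 7 measured genes were at least 2-fold lower in the SFRP5 pair and 0 of 6 in the WT pair, where 1 more was lower by a bound, with medians of -0.15 and -0.81. Afdn, the junctional adaptor afadin, had the widest drop, at -2.19 in the SFRP5 pair and a bound of -2.27 in the WT pair. Jam2 differed by -0.15 and -0.87, Jam3 by -0.71 and -0.90, F11r (JAM-A) by -1.26 and -0.76, and Magi1, a junctional scaffold, by -0.15 and 0.36. Tjp1, the scaffold ZO-1, was higher in CLP by 1.65 in the SFRP5 pair and 3.12 in the WT pair.

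Some Ly6 relatives of Ly6a were higher in CLP. Ly6d, a marker of lymphoid progenitors on their way to the B lineage, stood at 0.24 in SFRP5 CLP and 0.89 in WT CLP, against -3.41 in SFRP5 LSK and -2.40 in WT LSK. Ly6c1 stood at 4.61 in SFRP5 CLP and 4.33 in WT CLP, against 2.98 in SFRP5 LSK and 2.90 in WT LSK, and Ly6e at 6.31 in SFRP5 CLP and 6.44 in WT CLP, against 5.63 in SFRP5 LSK and 5.04 in WT LSK. The difference of Ly6e was short of 2-fold in the SFRP5 pair (0.69) and past it in the WT pair (1.4). Lynx1 was higher in CLP by 2.98 in the WT pair and 0.38 in the SFRP5 pair, and Gpihbp1, a lipase receptor of capillaries, was within 2-fold (-0.05 in the SFRP5 pair and -0.54 in the WT pair). Over the family 5 of 15 measured genes were at least 2-fold higher in CLP and 1 lower, Plaur, in each pair, with medians of 0.39 in the SFRP5 pair and 0.28 in the WT pair. By bounds 1 more was higher in each pair, and 1 more, Ly6g (-1.59), was lower in the SFRP5 pair. Whether probes of Ly6a and its close relatives cross-hybridise was not tested.

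In the SLAM list Cd244a, the receptor of CD48, was within 2-fold, at 3.35 in SFRP5 CLP and 3.29 in WT CLP, against 3.47 in SFRP5 LSK and 3.77 in WT LSK. Cd2, also a receptor of CD48, was above background on the LSK arrays alone, at -3.42 in SFRP5 LSK and -3.76 in WT LSK. Slamf7 differed between sorts by 1.36 in the SFRP5 pair and 0.84 in the WT pair, and Fyn, a kinase that SLAM adaptors recruit, stood at -1.52 and, short of 2-fold, -0.86. Cd84 and Ly9 differed in sign between the pairs, Cd84 at 0.38 in the SFRP5 pair and -1.34 in the WT pair, and Ly9 at 1.26 and -0.88. Over the list 1 of 6 measured genes in the SFRP5 pair and 1 of 5 in the WT pair were at least 2-fold lower, with medians of -0.12 and -0.86. At least 2-fold higher were 2 in the SFRP5 pair and 0 in the WT pair. By bounds 2 more were lower in the SFRP5 pair and 1 more was higher in the WT pair.

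Other surface genes of stem and progenitor cells were mixed in direction. Of 27 measured, 7 were at least 2-fold lower and 4 higher in CLP in the SFRP5 pair, and 8 lower and 5 higher in the WT pair, with medians of -0.18 and 0.24. Flt3, the receptor of a cytokine for early and lymphoid progenitors, was among the lowest, at -2.78 in the SFRP5 pair and -2.71 in the WT pair. Il7r, which the CLP gate selects, at 2.24 and 3.03, and the tetraspanin Cd63, at 1.62 and 1.75, were the highest by the mean of both pairs. Within single pairs Cd38 (1.82, SFRP5 pair) and Abcg2 (1.86, WT pair) were above Cd63. Between genotypes in CLP 0 of these 27 genes differed by 2-fold, and in LSK 2 were higher in SFRP5.

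Since most of the 10 genes are also endothelial genes, 26 endothelial markers were set beside them. Of these 17 were above background in SFRP5 CLP and 17 in WT CLP, against 16 in SFRP5 LSK and 17 in WT LSK. Their summed level, in multiples of the 75th percentile, was 28.0 in SFRP5 CLP and 31.1 in WT CLP, against 47.9 in SFRP5 LSK and 37.0 in WT LSK. Egfl7, the brightest (3.45, 3.74, 4.80 and 4.40 on the log2 scale in that order), made up much of these sums. In the SFRP5 pair 6 of 14 measured markers were at least 2-fold lower in CLP and 0 higher, with 2 more lower by bounds. In the WT pair 1 of 15 was lower and 2 higher, with 2 more lower and 1 more higher by bounds. Of all measured genes 11% were lower and 11.5% higher in the SFRP5 pair, and 14.3% and 17.8% in the WT pair. Calcrl and Nos3, like Tek, were above background on the LSK arrays alone. Single markers went both ways between the CLP arrays. Erg differed by 1.17 on the log2 scale between SFRP5 CLP and WT CLP, Apln by a bound of 1.61 and Icam2 by 0.80, and Sox18 was above background in SFRP5 CLP alone (-4.80). Stab2 differed by -1.96, and Cdh5 (VE-cadherin), the adhesion molecule of endothelial junctions, was above background in WT CLP alone (-3.75). Flt4 was above background in WT CLP (-3.49) and in WT LSK (-3.8) and on neither SFRP5 array. Over the list 1 of 15 measured markers was at least 2-fold higher and 1 lower in SFRP5 CLP, with 1 more higher and 2 more lower by bounds. Ptprb, Sox17, Lyve1, Mmrn2 and Ecscr were above background on no array. The part of endothelial RNA in the levels of the 10 genes was not tested beyond these values. The erythroid markers had a summed level of 489 in SFRP5 CLP and 806 in WT CLP, against 50.5 in SFRP5 LSK and 55.6 in WT LSK, and the B lineage markers 121 in SFRP5 CLP and 97.7 in WT CLP, against 10.5 in SFRP5 LSK and 6.57 in WT LSK. The granulocyte and monocyte markers had 344 in SFRP5 CLP and 315 in WT CLP, against 82.6 in SFRP5 LSK and 57.2 in WT LSK, and the mast cell and basophil markers 49.5 in SFRP5 CLP and 65.8 in WT CLP, against 8.68 in SFRP5 LSK and 7.69 in WT LSK. Kit was 0.72 higher on the log2 scale in SFRP5 CLP than in WT CLP. The part of these mixtures in the values of Procr and Robo4 was not tested.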

How the data were processed

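RNA of 4 sorted samples (1 array for each group) was amplified over the whole transcriptome, starting from 6.1 ng, and labelled with Cy3, per the labels' protocols. The deposited scanner files hold 1-colour spot intensity after background subtraction. The software was Agilent Feature Extraction, version 10.10.1.1 in the file headers and 10.10 in the submitters' processing notes, and per the file headers probes are annotated on mm9. In the authors' deposited table of signals, this intensity is multiplied by a constant for each array (4.906 to 6.42, computed here), for which no source used here gives a reason. All 4 arrays lie on 1 slide with 1 scan, so a slide block has nothing to separate.

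For 59305 spots that are no controls, the processed intensity was turned into log2 minus the 75th percentile of its array (290.9 in SFRP5 CLP, 227.2 in WT CLP, 277.5 in SFRP5 LSK and 276.5 in WT LSK). Spots with outlier flags (128 to 160 an array) were left out and no spot was saturated. Symbols were updated through Entrez IDs, of which 30994 of 33325 named probes matched the RefSeq table of GRCm38.p6. In counts each gene is represented by its brightest probe (mean of all arrays), and the text gives all probes of the 10 genes. Differences were counted at 2-fold with no p-value. An additive fit over the 4 arrays was left out because it would force 1 genotype difference on both sorts. Alternatives were normexp background correction (limma 3.58.1, R 4.3.3, offset 50), quantile and cyclic loess normalization, scaling on probes above background on all arrays, the authors' table, no filter on dim probes, probes above background on all 4 arrays only, averaging all probes of a gene and a threshold of 1.5-fold. The mean spot signal is not among the columns used here, so normexp took the median spot signal. The scaling and bounds were tested on simulated data (Python 3.11.15, pandas 2.3.3). A first, narrower tolerance was not met by all comparisons and was widened after this was seen. The simulation had a fixed cutoff for the flag, no added background and less noise than dim spots have. It therefore does not show that the bounds hold at dim signals. The 10 genes, the lists and the motifs were chosen with earlier results of these data known. The text names the 10 genes, direct partners and, of each pathway list, the 2 highest and 2 lowest differences between sorts (the mean over both genotypes) among genes above background on all arrays, of which some are not reported here. Neighbouring genes, Afdn and those of the marker lists that are named, were picked after their values were seen.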

Additional observations from a re-analysis of the deposited data

Results flagged for a closer look

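Of the 8 genes described here with a value or a bound in both sorts, 4 had differences between SFRP5 and WT of opposite sign in the 2 sorts. This is close to the share over all genes, which was 52.8% of 16726. For Procr the difference was 4.20 on the log2 scale in CLP, as a lower bound because WT CLP was not above background, and -0.24 in LSK. For Cd34 it was -0.14 in CLP and 0.43 in LSK by the brighter probe. The other Cd34 probe gave 0.05 in CLP and 0.50 in LSK, so that the sign in CLP rests on 1 probe. For Ly6a it was 0.14 in CLP and -0.33 in LSK. For Cd48 it was -0.0 in CLP, below 0 only before rounding, and 0.53 in LSK by the brighter probe, and -0.29 in CLP and 0.23 in LSK by the other. The SD that replicate spots give a difference at these levels was 0.14 for Ly6a and 0.09 for Cd48 in CLP, so neither difference in CLP, by the brighter Cd48 probe, was larger than it. Such an SD is technical and leaves out the spread between samples. The difference of Cd34 in CLP ran from -0.15 to -0.02 over the alternatives, so that it too was within that SD under some of them. The difference between the sorts was not tested for any of the 4 genes, since each group has 1 array, and the arrays also differ in sex-linked expression.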

How the results depend on the processing

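No paired analysis was possible because each group has 1 array, and leaving out a replicate would leave no value. No called difference changed sign under any alternative that was run. Of the 261 recomputed gene differences, 189 moved by less than the SD of replicate spots, but many of these could not move. The settings with no filter and with probes above background on all arrays change only which genes are counted. Averaging all probes changes only Cd34 and Cd48, which have 2 probes each. The share of 189 is therefore no measure of stability. The authors' scaling shifted the median of all genes to -0.154 and -0.462 for CLP minus LSK in SFRP5 and in WT, and to 0.067 and -0.147 for SFRP5 minus WT in CLP and in LSK. Ly6a included, the main setting had 7 measured genes at least 2-fold lower in CLP in the SFRP5 pair and 4 in the WT pair. The count of the SFRP5 pair became 4 over probes above background on all 4 arrays, since fewer genes were tested. That of the WT pair became 8 with no filter on dim probes. With Ly6a the medians of the main setting were -2.80 in the SFRP5 pair and -2.52 in the WT pair. The median of the SFRP5 pair became -1.47 with normexp and -2.10 over probes above background on all arrays. That of the WT pair became -1.63 with normexp, -2.90 with quantile normalization and -2.94 in the authors' table. The number of genes lower in both pairs was 8 in the main setting. Over the alternatives, a set added after the data were seen, it ran from 6 with normexp (without Tek and Emcn) to 9. These counts and medians include Ly6a. For SFRP5 minus WT in CLP, no filter gave 2 lower and 2 higher, a threshold of 1.5-fold gave 1 lower by a bound (Emcn), and normexp gave 1 higher by a bound. With normexp the measured difference of Procr in CLP was 1.75 and that of Robo4 0.70, against 5.09 and 3.76 as measured in the main setting, so that Robo4 was under 2-fold, and the cause was not tested. For SFRP5 minus WT in LSK, no filter gave 1 lower, and cyclic loess, scaling on probes above background on all arrays and 1.5-fold each gave 1 higher (Robo4), measured and with bounds, and the median became 0.39 with cyclic loess, 0.05 in the authors' table and 0.45 over probes above background on all arrays. With the weaker flag for a positive and significant signal, 11 of the 12 probes passed in SFRP5 CLP and 12 in WT CLP. Between genotypes in CLP, small differences changed sign over the alternatives for Esam (-0.21 to 0.27) and Cd48 (-0.15 to 0.10), as did Tek in LSK (-0.16 to 0.46). Signals below -4 limit what can be said of Slamf1 on all arrays, of Tek and Esam in CLP, of Emcn in SFRP5 CLP, and of Procr and Robo4 in WT CLP, on which their bounds rest.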
